A study of Gallus gallus with 58 samples.

Results

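The genes described here encode the subunits of the 5 complexes of oxidative phosphorylation that are encoded in the nucleus. A probe set was taken where its only platform gene symbol began with NDUFA, NDUFB, NDUFC, NDUFS or NDUFV and a digit, with UQCR, with COX followed by a digit from 4 to 8, or with ATP5, or was SDHA, SDHB, SDHC or SDHD. This gave 55 probe sets of 53 genes, out of 20804 probe sets and 11528 genes with a single symbol on the array. The probe set with the highest mean stood for each gene. Complex I has 24 of the 53 genes, complex II 3, complex III 6, complex IV 9 and complex V 11. The chicken gene table holds 74 genes with such symbols, and the other 21 were not measured under these symbols and are not analysed here. Of these genes, 7 lie on chromosome 1 of that gene list, 6 on chromosome 2, 4 on chromosome Z and 1 on chromosome W, and 1 gene (NDUFB4) had no match. The members' mean log2 values ran from 6.05 (NDUFC2) to 11.39 (COX7B) with a median of 8.72, against a median of 6.70 over all probe sets, and 52 of the 53 lay above the 40th percentile of all probe sets (6.26). Signals of different probe sets are not amounts that can be set against each other, so only the same gene is compared between chicks below.

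Oxidative phosphorylation makes ATP in mitochondria. Complex I, which oxidises NADH, and complex II, the succinate dehydrogenase shared with the tricarboxylic acid cycle, pass electrons to ubiquinone, complex III passes them on to cytochrome c, and complex IV, cytochrome c oxidase, passes them to oxygen. Complexes I, III and IV pump protons, and complex V, the ATP synthase, uses the return of the protons to make ATP. Red cells of birds keep their nucleus and mitochondria, unlike those of mammals, so that the transcripts of a bird's blood come to a large extent from red cells.

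The chicken (Gallus gallus) blood samples came from 58 chicks, each measured on 1 expression array. The chicks were either controls or had been given CpG-ODN 2007, a short synthetic DNA that activates TLR21, a receptor of chicken immune cells for such DNA, by injection on the day of hatch. Whole blood was taken 3 h later (10 control and 10 CpG chicks), at day 3 (D3, 8 and 8) or at day 6 (D6, 12 and 10), and each chick was sampled once. What the control chicks received, the breed and the sex of the chicks are not given in the labels, and every group shares the tissue and the array type. The sample titles give treatment, chick number and time point, and no date or batch of hatch. All values below are log2 values as deposited, and a log2 difference of 1 is a 2-fold difference. A member is said to rise or fall only where limma's moderated test gave an adjusted p under 0.05 over all 20804 probe sets. A value behind ± is an SD after a group mean and limma's standard error (SE) after a log2 fold change.

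Array medians lay between 6.64 and 6.78. Arrays stood apart in 3 cases, by a median correlation with the other arrays of their group of 0.942 (CpG chick 31 at D6), 0.946 (control chick 74 at 3 h) and 0.947 (control chick 86 at D3), against 0.959 to 0.980 for the other 55. CpG chick 31 had the lowest mean of all 53 members of any chick, 7.97, whereas the other CpG chicks at D6 reached up to 8.78. The 11 measured erythroid markers, genes of the red cell lineage, had mean log2 values of 11.17 to 14.32. Marker scores (the mean z-score of a list over the 58 arrays) moved with age and treatment. In controls, the erythroid score was -0.44 ± 0.40 at 3 h (mean ± SD), 0.10 ± 0.28 at D3 and 0.46 ± 0.10 at D6. From 3 h to D6, 7 of the 11 markers rose and 3 fell, where 26.2% of all probe sets rose and 21.7% fell. The score thus averages markers that moved in both directions. In CpG chicks the erythroid score was -0.36 ± 0.12, 0.00 ± 0.35 and 0.16 ± 0.43. The thrombocyte score of controls went from 0.48 ± 0.48 to -0.65 ± 0.53 between 3 h and D6, and the heterophil score from 0.09 ± 0.67 to -0.85 ± 0.28. In whole blood, a change in the share of a cell type cannot be told apart from a change of RNA per cell.

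The first comparison was of control chicks over the first 6 days. Transcripts of 30 of the 53 subunit genes rose from 3 h to D6 and those of 5 fell, which is 66.0% of the members where 48.0% of all probe sets were called (26.2% higher and 21.7% lower). The median log2 fold change was 0.33 over the members and 0.06 over all probe sets. Of the 11528 named genes 51.9% were called, 26.2% higher and 25.7% lower. Brighter probe sets were called more often. A filter on the lowest 40% by mean left 12482 probe sets, of which 7449 were called (3496 higher and 3953 lower). In that fit 30 of 52 members rose and 5 fell, so the members differed from such probe sets more in direction than in share called. The complexes did not move alike. All 9 members of complex IV rose (median 0.70), as did 7 of 11 in complex V (median 0.37, none fell), 3 of 6 in complex III (median 0.28, 1 fell) and 11 of 24 in complex I (median 0.19, 2 fell). In complex II none rose and 2 of 3 fell (median -0.29). The mean log2 value of the 9 complex IV members per chick was 8.60 ± 0.14 at 3 h, 9.17 ± 0.19 at D3 and 9.31 ± 0.15 at D6, whereas that of the 3 complex II members was 9.29 ± 0.14, 9.08 ± 0.27 and 9.00 ± 0.12. The mean of all named genes was 7.16 to 7.18 in the 3 control groups. The deposited values come from RMA, which equalises the arrays' distributions, so this mean is largely fixed and does not show that the total signal was unchanged.

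**Figure D1:**
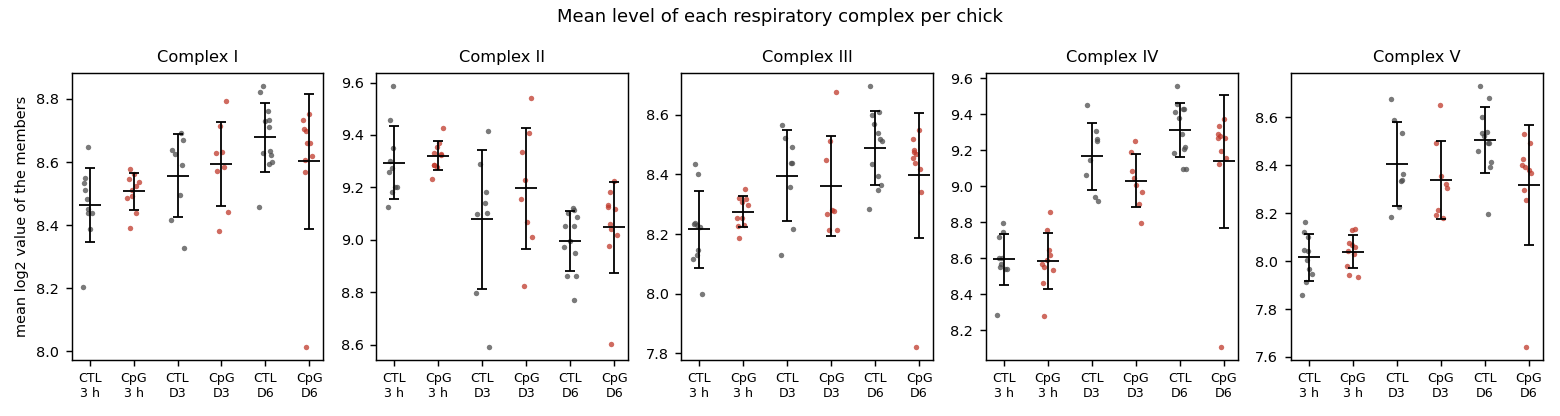
Mean log2 value of the members of each respiratory complex, 1 point per chick, by treatment (CTL, control; CpG) and time, with group mean (horizontal line) and SD (bars). The complex IV mean of controls goes from 8.60 at 3 h to 9.31 at D6 while the complex II mean goes from 9.29 to 9.00, and the point far below the others in CpG D6 is chick 31.

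Complex IV had made most of its rise by D3, with a median of 0.53 from 3 h to D3 against 0.70 from 3 h to D6. From 3 h to D3, 19 members rose and 4 fell (43.4% of the members, where 24.8% of all probe sets were called, 11.8% higher and 13.0% lower), among them 8 of 9 in complex IV and 5 of 11 in complex V. Between D3 and D6, 5 rises passed (9.43%, where 14.7% of all probe sets were called, 6.76% higher and 7.95% lower): COX8A, NDUFB3, NDUFB4, NDUFB10 and NDUFS8. These comparisons share the 3 h or the D3 chicks. With the filter on the lowest 40%, 4613 of 12482 probe sets were called from 3 h to D3 (2133 higher and 2480 lower). In that fit 20 of 52 members rose and 4 fell. At D3, 3 members had groups without overlap (ATP5H, COX7A2 and ATP5B), where 2.89% of all probe sets had none. The count from D3 to D6 rested on few chicks: it was 2 without control chick 90 at D3, 3 without chick 106 or 108 at D6, 9 without chick 85 or 91 at D3, and 8 without the 3 arrays that stood apart (15.1%, where 20.0% of all probe sets were called).

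Among the subunits of cytochrome c oxidase, COX7A2, the form of subunit VIIa found in most tissues, had the largest fold change. Its log2 values were 7.78, 8.12 and 8.38 (lowest, median and highest) in the 10 controls at 3 h, 8.84, 9.16 and 9.31 in the 8 at D3 and 9.01, 9.36 and 9.65 in the 12 at D6. Every control at D3 and at D6 lay above every control at 3 h, and the change to D6 was 1.20 ± 0.15 (adjusted p = 1.9e-09). NDUFA4, a small protein first assigned to complex I and later found in complex IV of mammals, lay at 9.07, 9.54 and 9.98 at 3 h, 9.57, 10.48 and 10.88 at D3 and 10.22, 10.59 and 11.09 at D6. The D3 group overlapped the 3 h group and the D6 group did not, and the change to D6 was 1.12 ± 0.14 (adjusted p = 4.58e-09). COX8A, the widely expressed form of subunit VIII, rose in both steps, with 8.36, 8.60 and 8.84 at 3 h, 8.77, 9.17 and 9.57 at D3 and 9.03, 9.65 and 9.74 at D6. Its changes were 0.53 ± 0.11 (adjusted p = 0.000154) from 3 h to D3 and 0.38 ± 0.11 (adjusted p = 0.00936) from D3 to D6.

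The other members of complex IV rose by less. COX4I1, the widely expressed form of the regulatory subunit IV, had group means of 9.50 ± 0.15, 9.84 ± 0.26 and 10.10 ± 0.13 at 3 h, D3 and D6, and all 12 chicks at D6 lay above all 10 at 3 h. COX7B went from 11.09 ± 0.22 to 11.62 ± 0.28 at D3 and stayed at 11.61 ± 0.11 at D6, again with no overlap between 3 h and D6. COX6C, COX7B and COX7C are small subunits that surround the catalytic core, which is itself encoded by mitochondrial DNA. COX6C changed by 0.70 ± 0.12 (adjusted p = 1.61e-06) from 3 h to D6 and COX7C by 0.70 ± 0.16 (adjusted p = 0.000368). COX6A1, the form of subunit VIa found in most tissues, had the smallest rise of the complex, 0.28 ± 0.10 (adjusted p = 0.0161), and it no longer passed when control chick 75 at 3 h was left out (0.22, adjusted p = 0.0581). COX7A2L, which in mammals joins complexes III and IV into supercomplexes and is no subunit of the standard enzyme, rose by 0.42 ± 0.11 (adjusted p = 0.00184).

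In the ATP synthase, the largest change belonged to ATP5I, subunit e, a small membrane protein that helps pairs of the enzyme to form. Its log2 values were 5.65, 5.98 and 6.45 at 3 h, 6.30, 7.24 and 7.88 at D3 and 6.59, 7.25 and 8.25 at D6. The 12 chicks at D6 lay above all at 3 h but ranged over more than 1 log2 unit, and the change was 1.24 ± 0.18 (adjusted p = 9.57e-08). ATP5B, the catalytic beta subunit, lay at 9.91, 10.25 and 10.42 at 3 h, 10.65, 11.07 and 11.96 at D3 and 10.50, 10.95 and 11.35 at D6. Both later groups lay wholly above the 3 h group, and the changes against it were 0.88 ± 0.14 (adjusted p = 3.51e-06) at D3 and 0.73 ± 0.13 (adjusted p = 5.49e-06) at D6. The second probe set of ATP5B rose too, by 0.92 ± 0.12 to D6 (adjusted p = 1.18e-08).

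ATP5H, subunit d of the peripheral stalk that holds the enzyme's head still, rose by 0.55 ± 0.09 (adjusted p = 1.65e-06) from 3 h to D3 and by 0.50 ± 0.08 (adjusted p = 3.41e-07) from 3 h to D6. Its group means were 8.85 ± 0.17, 9.40 ± 0.16 and 9.35 ± 0.12, and no chick at D3 or D6 overlapped the chicks at 3 h. ATP5O, the stalk protein that ties it to the head, changed by 0.37 ± 0.10 (adjusted p = 0.00235) from 3 h to D6, and ATP5C1, the gamma subunit that turns inside the head, by 0.51 ± 0.11 (adjusted p = 0.000135). ATP5G1, which encodes the proton-carrying c ring, changed by 0.24 ± 0.07 (adjusted p = 0.00495). ATP5J (stalk, 0.16 ± 0.09), ATP5E (epsilon, 0.18 ± 0.15) and ATP5S (0.12 ± 0.14), which encodes a factor that is no standard subunit, did not pass. The remaining members of complex V are the alpha subunit's copies on the sex chromosomes, described further down.

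In complex III, the Rieske iron-sulfur protein UQCRFS1, which takes electrons from ubiquinol, lay at 6.85, 7.24 and 7.65 at 3 h, 7.34, 8.01 and 8.18 at D3 and 7.70, 8.03 and 8.20 at D6. The chicks at D6 did not overlap those at 3 h, and the change was 0.74 ± 0.11 (adjusted p = 8.97e-08). UQCRQ, a small subunit next to the ubiquinone site, rose by 0.67 ± 0.09 (adjusted p = 2.27e-08), and UQCRC2, a core protein, by 0.43 ± 0.10 (adjusted p = 0.000239). Its partner core protein UQCRC1 did not pass, with 9.62 ± 0.14, 9.54 ± 0.13 and 9.62 ± 0.10, a change of 0.00 ± 0.06 (adjusted p = 0.978). UQCR11, the smallest subunit, fell, from 8.22 ± 0.28 at 3 h to 7.90 ± 0.19 at D6, a change of -0.32 ± 0.11 (adjusted p = 0.0169), and the groups overlapped. UQCRHL, a hinge-like protein, did not pass (0.12 ± 0.12, adjusted p = 0.401).

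Complex II went the other way. SDHD, which anchors the enzyme in the membrane and takes part in ubiquinone binding, lay at 8.98, 9.11 and 9.38 at 3 h, 8.34, 8.93 and 9.18 at D3 and 8.18, 8.65 and 8.88 at D6. All 12 chicks at D6 lay below all 10 at 3 h, and the change was -0.51 ± 0.09 (adjusted p = 1.86e-06). SDHB, the iron-sulfur subunit, lay at 8.62, 8.83 and 9.37, 7.82, 8.72 and 8.90 and 8.31, 8.66 and 8.74, with overlap at each age and a change of -0.29 ± 0.10 (adjusted p = 0.0146). Under repeated quantile normalization the change of SDHB was -0.18 and no longer passed, and its fall to D3 (-0.34 ± 0.11, adjusted p = 0.0216) no longer passed without control chick 81 at 3 h or chick 86 or 92 at D3. SDHA, the flavoprotein that oxidises succinate, lay at 9.86 ± 0.14, 9.84 ± 0.18 and 9.76 ± 0.09 and did not pass.

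Complex I, the largest complex, was split. NDUFA1, a small membrane subunit needed for assembly in mammals, lay at 6.96, 7.76 and 7.99 at 3 h, 7.95, 8.31 and 8.62 at D3 and 8.12, 8.44 and 8.87 at D6. No chick at D6 overlapped one at 3 h, and the change was 0.82 ± 0.14 (adjusted p = 2.8e-06). NDUFA7, another accessory subunit, lay at 7.03, 7.96 and 8.30, 7.99, 8.55 and 8.83 and 8.36, 8.66 and 8.97, and the D6 group lay wholly above the 3 h group, with a change of 0.75 ± 0.12 (adjusted p = 1.34e-06). NDUFB2 (0.39 ± 0.08) and NDUFB10 (0.38 ± 0.08), accessory subunits of the membrane arm, also had no overlap between these groups. Altogether 14 of the 53 members had none between 3 h and D6 in controls, where 8.2% of all probe sets had none.

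The core subunits of complex I did not share a direction. NDUFV1, which binds NADH, rose by 0.40 ± 0.10 (adjusted p = 0.000432), and NDUFS8, an iron-sulfur subunit on the way to ubiquinone, by 0.36 ± 0.08 (adjusted p = 0.000171). NDUFS1, the largest iron-sulfur subunit of the NADH-oxidising module, fell from 10.29 ± 0.10 to 10.10 ± 0.11, a change of -0.19 ± 0.06 (adjusted p = 0.00613), and 7 of 12 chicks at D6 lay below every chick at 3 h. NDUFV2, an iron-sulfur subunit beside NDUFV1, did not pass on its main probe set (-0.02 ± 0.10, adjusted p = 0.875). A second, dimmer probe set of NDUFV2 (mean log2 value 5.68 against 8.10) changed by -0.79 ± 0.16 (adjusted p = 4.35e-05), so that the 2 probe sets of this gene disagree. Among the accessory subunits NDUFA10 (0.52 ± 0.14), NDUFS4 (0.55 ± 0.18), NDUFS5 (0.41 ± 0.09), NDUFS6 (0.30 ± 0.09) and NDUFA2 (0.33 ± 0.09) rose, NDUFB5 fell (-0.18 ± 0.08, adjusted p = 0.046), and NDUFB1 did not pass (-0.18 ± 0.13, adjusted p = 0.254). The fall of NDUFB5 no longer passed in 11 of 22 fits that left out 1 chick.

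**Figure D2:**
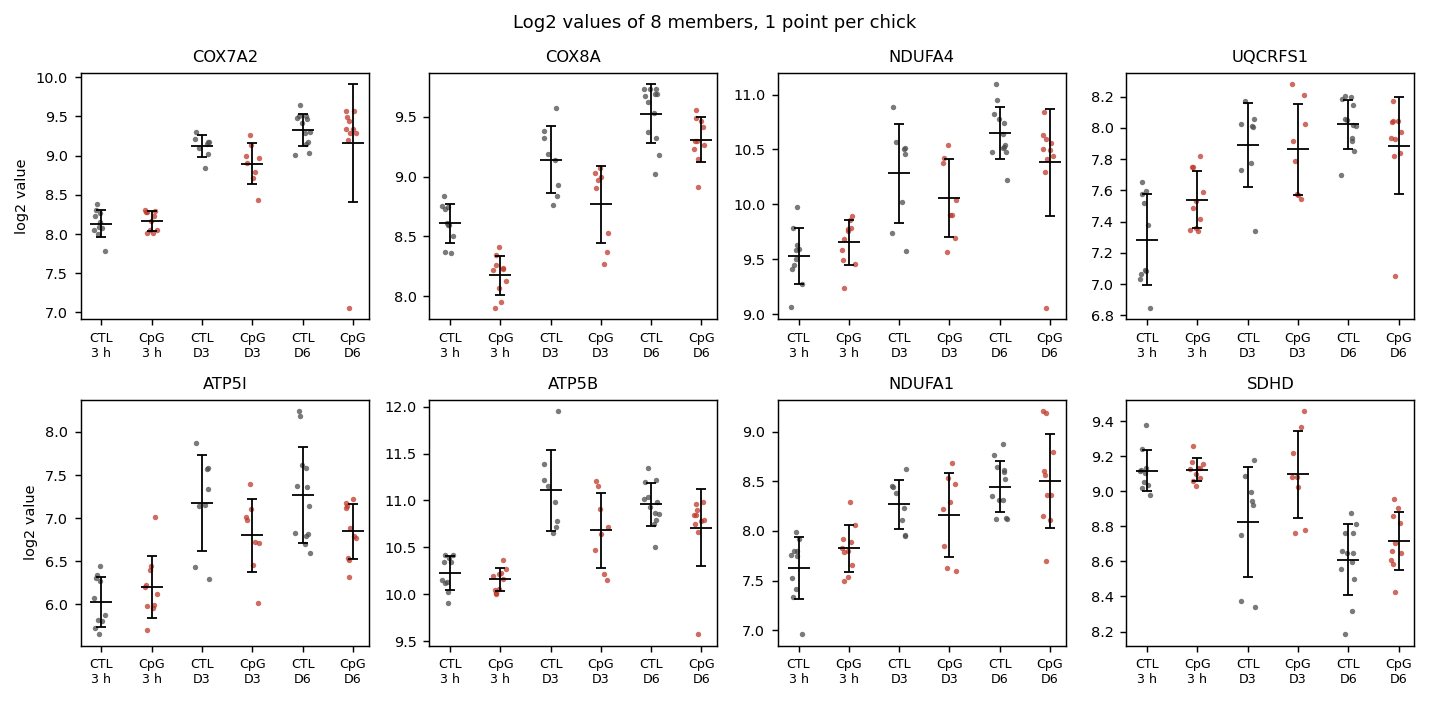
Log2 values of 8 members in each chick, by treatment and time, with group mean (line) and SD (bars). COX7A2, COX8A, NDUFA4, UQCRFS1, ATP5I, ATP5B and NDUFA1 lie higher in every control at D6 than in any control at 3 h, and SDHD lies lower.

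NDUFB3 and NDUFB4, accessory subunits of the membrane arm of complex I, had lower means at D3 than at 3 h or D6 in both treatments. NDUFB4 lay at 8.49, 8.79 and 9.09 at 3 h, 8.01, 8.60 and 8.77 at D3 and 8.64, 8.73 and 8.96 at D6 in controls, and at 8.77, 8.85 and 9.07, 8.25, 8.53 and 8.82 and 8.42, 8.82 and 9.00 in CpG chicks. The D3 groups overlapped the others at their upper end. NDUFB4 changed by -0.30 ± 0.08 and -0.34 ± 0.08 from 3 h to D3 (adjusted p = 0.00466 and 0.00132) and by 0.25 ± 0.08 and 0.25 ± 0.08 from D3 to D6 (adjusted p = 0.0223 and 0.0194) in control and CpG chicks. NDUFB3 did the same by -0.29 ± 0.11 and -0.29 ± 0.11 and then by 0.33 ± 0.10 and 0.28 ± 0.11, with adjusted p-values of 0.0334, 0.0461, 0.02 and 0.0397. Against 3 h, neither gene passed at D6 in either treatment. In fits of only the arrays compared, 6 of these 8 calls no longer passed, and the fall of NDUFB4 in CpG chicks and the later rise of NDUFB3 in controls did.

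The same ages were compared among the chicks given CpG, which shares no chick with the comparison among controls. In these chicks 23 members rose and 7 fell from 3 h to D6 (56.6%, where 44.6% of all probe sets were called, 24.1% higher and 20.5% lower), with a median log2 fold change of 0.20 against 0.06 over all probe sets. By D3, 14 had risen and 3 fallen (32.1%, where 19.4% were called, 9.68% higher and 9.74% lower). Between D3 and D6, 4 rose and 4 fell (15.1%, where 27.1% were called, 14.8% higher and 12.3% lower). To D6, 7 of 9 members rose in complex IV (median 0.48), 6 of 11 in complex V, 3 of 6 in complex III and 7 of 24 in complex I, and 2 of 3 members of complex II fell (median -0.35). Without the 3 arrays that stood apart the count to D6 was 29 rises and 7 falls (67.9%, where 46.2% of all probe sets were called), and from D3 to D6 it was 15 rises and 2 falls (32.1%, where 29.6% were called). With the filter on the lowest 40%, 6927 of 12482 probe sets were called from 3 h to D6 (3112 higher and 3815 lower). In that fit 24 of 52 members rose and 8 fell.

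Of the 30 members that rose to D6 in controls, 22 also rose in CpG chicks, which is 73.3% of the control list and 95.7% of the 23 of the CpG list. The 5 that fell in controls (SDHD, SDHB, UQCR11, NDUFS1 and NDUFB5) were among the 7 that fell in CpG chicks, and no member was called in opposite directions. Over the 53 members the fold changes of both treatments had a correlation of 0.903, which is a description over genes of the same blood samples that are not independent. ATP5S (-0.47 ± 0.15, adjusted p = 0.00737) and NDUFB1 (-0.40 ± 0.13, adjusted p = 0.0135) were the other 2 falls in CpG chicks. By the probe set that stood for the gene, 12 members were called in no comparison of ages or treatments: ATP5E, ATP5F1AZ, NDUFA9, NDUFB6, NDUFB8, NDUFB9, NDUFC2, NDUFV2, NDUFV3, SDHA, UQCRC1 and UQCRHL. The second, dimmer probe set of NDUFV2 fell in CpG chicks as in controls. Its changes from 3 h in CpG chicks were -1.095 ± 0.175 to D3 (adjusted p = 4.29e-06) and -1.088 ± 0.165 to D6 (adjusted p = 4.35e-07). Over all probe sets, 48.0% were called from 3 h to D6 in controls and 44.6% in CpG chicks. How many of those were shared, and how many probe sets were called in no comparison, is not given here. The agreement between treatments is therefore not shown to be particular to these members.

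**Figure D3:**
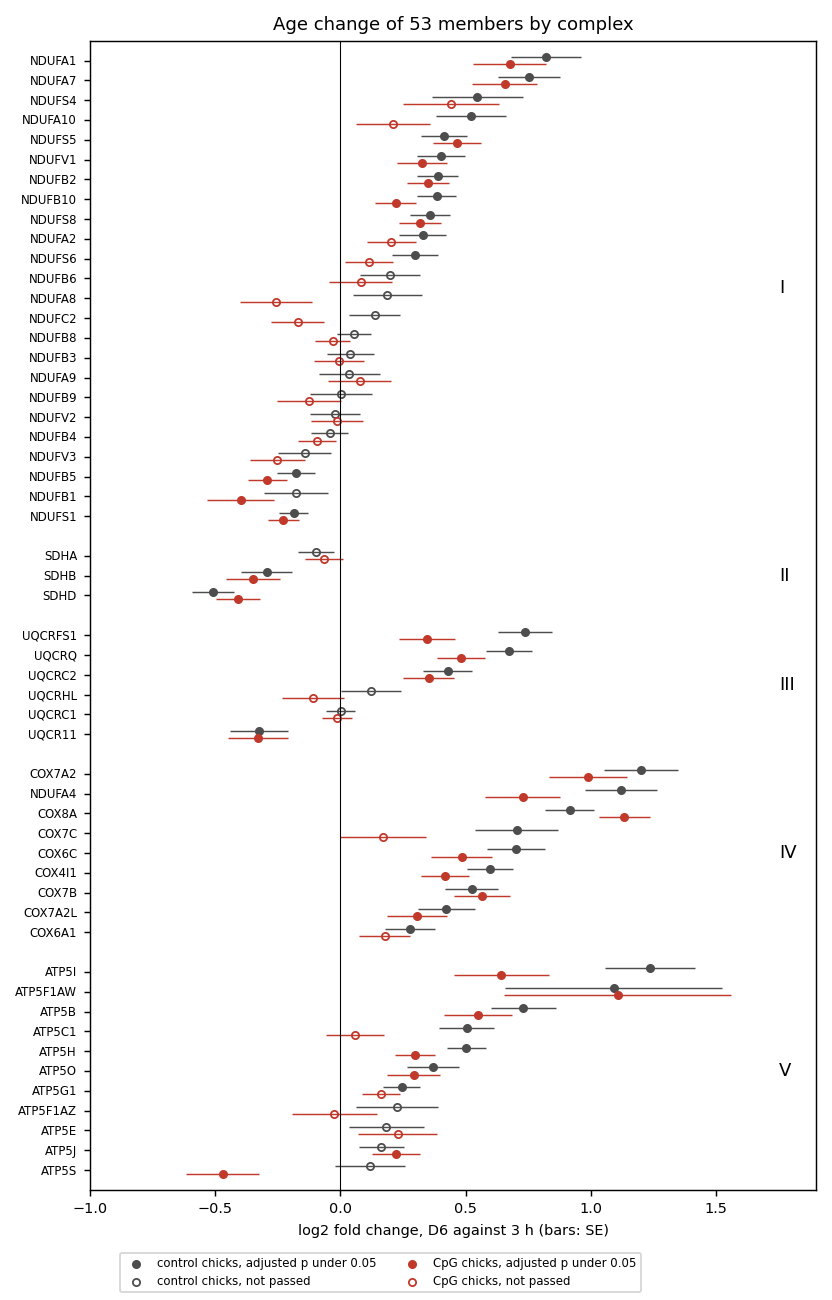
Log2 fold change from 3 h to D6 of all 53 members, by complex, in control (grey) and CpG (red) chicks, with SE as bars and filled points for adjusted p under 0.05. All 9 control points of complex IV lie right of 0 and are filled, and all 3 control points of complex II lie left of it.

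COX8A gave the smallest p in CpG chicks, where it lay at 7.90, 8.23 and 8.42 at 3 h, 8.27, 8.94 and 9.07 at D3 and 8.92, 9.30 and 9.56 at D6. Its D6 group lay wholly above its 3 h group, and the change was 1.13 ± 0.10 (adjusted p = 1.25e-12). SDHD lay at 9.03, 9.13 and 9.26, 8.77, 9.08 and 9.46 and 8.43, 8.68 and 8.96, a change of -0.41 ± 0.09 (adjusted p = 0.000201) to D6, and all 10 chicks at D6 lay below all 10 at 3 h. COX7A2 lay at 8.01, 8.20 and 8.31, 8.43, 8.93 and 9.27 and 7.05, 9.34 and 9.57, where the lowest value at D6 is chick 31 and the other 9 chicks lay above all at 3 h. COX8A and SDHD were the 2 members without overlap between 3 h and D6 in CpG chicks, where 4.07% of all probe sets had none. Between 3 h and D3 there were 2 as well, ATP5H and COX7A2, where 1.82% had none.

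The other leading calls of CpG chicks from 3 h to D6 were mostly the genes named for controls. In complex IV, NDUFA4 changed by 0.73 ± 0.15 (adjusted p = 8.9e-05) and COX7B by 0.57 ± 0.11 (adjusted p = 4.98e-05). In complex V, ATP5I lay at 5.71, 6.16 and 7.01 at 3 h and 6.32, 6.84 and 7.22 at D6, with 4 of 10 chicks at D6 above all at 3 h and a change of 0.64 ± 0.19 (adjusted p = 0.00458), and ATP5B changed by 0.55 ± 0.14 (adjusted p = 0.000875). In complex III, UQCRQ changed by 0.48 ± 0.10 (adjusted p = 5.58e-05), UQCRC2 by 0.35 ± 0.10 (adjusted p = 0.00388), UQCRFS1 by 0.35 ± 0.11 (adjusted p = 0.01) and UQCR11 by -0.33 ± 0.12 (adjusted p = 0.0229). In complex I, NDUFA1 changed by 0.68 ± 0.15 (adjusted p = 0.000186), NDUFA7 by 0.66 ± 0.13 (adjusted p = 4.72e-05) and NDUFS5 by 0.46 ± 0.10 (adjusted p = 9.52e-05). UQCRFS1, ATP5B, NDUFA4, COX7B, UQCRQ, UQCRC2, NDUFA7 and NDUFS5 each had 9 of 10 chicks at D6 above all 10 at 3 h. The share of all probe sets that reached 9 of 10 is not given here, so this is not shown to be particular to these members.

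A few members fell between D3 and D6 in CpG chicks. NDUFB5 lay at 9.02, 9.19 and 9.43 at D3 and 8.46, 8.86 and 9.02 at D6. All 10 chicks at D6 lay below all 8 at D3, a change of -0.40 ± 0.08 (adjusted p = 0.000461), and it was the 1 member without overlap where 0.769% of all probe sets had none. SDHD changed by -0.38 ± 0.09 (adjusted p = 0.00275) in the same step. NDUFA8, an accessory subunit, changed by -0.44 ± 0.15 (adjusted p = 0.0277) and ATP5H by -0.24 ± 0.09 (adjusted p = 0.0305), and neither passed without the 3 arrays that stood apart (-0.36 and -0.18). The count of 8 calls in this step was 5 without CpG chick 14 or 18 at D3 or chick 26 at D6, and 15 without chick 31.

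Marker scores moved in the same samples as these age changes, and the counts depended on them. With the erythroid score as a covariate, 16 members were called from 3 h to D6 in controls in place of 35. That is 30.2% of the members where 33.5% of all probe sets were called, so the members' share no longer lay above that of all probe sets, and their median went from 0.33 to 0.08 (0.07 over all probe sets). In this fit 4 of the 9 members of complex IV rose and all 3 members of complex II fell, while COX6A1 (-0.04) and COX7A2L (-0.06) turned to just below 0 and did not pass. In CpG chicks 21 were called in this fit (39.6%, where 41.0% of all probe sets were). The embryonic globins HBE and HBZ were added to the erythroid score in another fit, chosen after seeing the data. There 20 of the 53 members rose and 6 fell in controls, where 7933 of 20804 probe sets were called. The medians were 0.18 for the members and 0.06 over all probe sets, so the comparison with all probe sets depended on the markers in the score. With the scores of all 6 cell types as covariates, 8 were called in controls (15.1%, where 12.8% of all probe sets were) and 8 in CpG chicks (15.1%, where 16.7% were). In controls these 8 were rises of ATP5I (1.40 ± 0.28), COX8A (0.73 ± 0.17), COX7A2 (0.66 ± 0.20), NDUFA4 (0.65 ± 0.22), UQCRFS1 (0.62 ± 0.17) and UQCRQ (0.45 ± 0.15) and falls of SDHD (-0.51 ± 0.13) and NDUFS1 (-0.32 ± 0.09). In CpG chicks they were rises of COX8A (0.93 ± 0.15), NDUFA4 (0.52 ± 0.18), UQCRFS1 (0.42 ± 0.14), UQCRC2 (0.42 ± 0.15), UQCRQ (0.36 ± 0.13) and NDUFB2 (0.32 ± 0.11) and falls of NDUFB1 (-0.51 ± 0.19) and NDUFS1 (-0.28 ± 0.08). The largest adjusted p among the 16 calls was 0.0491. The scores differ between the ages, so these fits are also less precise. The SE of ATP5I in controls was 0.18 without the scores and 0.28 with all 6. Whether a call was lost through a smaller change or through a larger SE was not tested. Whether the remaining calls go with cell types outside these 6 lists was not tested either.

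The second comparison was between CpG and control chicks of the same age. No member passed at 3 h (where 0.0% of all probe sets were called), at D3 (0.312%, with 0.24% higher and 0.0721% lower) or at D6 (2.11%, with 1.52% higher and 0.591% lower), by limma's test. An unadjusted p under 0.05 was found for 3, 7 and 10 of the 53 members. Of all 20804 probe sets, 1037, 3210 and 2878 had one. The 95% interval of the effect lay within 0.5 log2 units of 0 for 48 of 53 members at 3 h, 40 at D3 and 45 at D6. At D6 the median effect of the members was -0.11, with 42 of 53 below 0, against a median of -0.02 over all probe sets. All 9 members of complex IV (median -0.18) and all 6 of complex III (median -0.09) were below 0, as were 9 of 11 of complex V (median -0.21), while all 3 of complex II were above 0 (median 0.04). Without the 3 arrays that stood apart, CpG chick 31 among them, the median over the 53 members was -0.04 and 30 of 53 were below 0. The split by complex without these arrays is not given here, and chick 31 had the lowest mean of its group in every complex. For complex IV at D6, the group means per chick were 9.14 in CpG chicks and 9.31 in controls. The group medians, which depend less on 1 chick, were 9.27 and 9.34. At D6, 4 of 5 monocyte, 3 of 9 heterophil and 3 of 7 thrombocyte markers were higher in CpG chicks and 1 of 11 erythroid markers (BPGM, -0.81 ± 0.14) was lower. With the erythroid score as a covariate the members' median was -0.04 with 33 of 53 below 0, and with all 6 scores it was -0.03 with 31 below 0. No change of the CpG effect between 2 times passed for any member, where 0.00961% (3 h to D3, all higher), 0.0% (D3 to D6) and 0.596% (3 h to D6, 0.553% higher and 0.0433% lower) of all probe sets did. For these changes 3, 5 and 7 of the 53 members had an unadjusted p under 0.05, as did 1451, 1201 and 1958 of the 20804 probe sets.

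**Figure D4:**
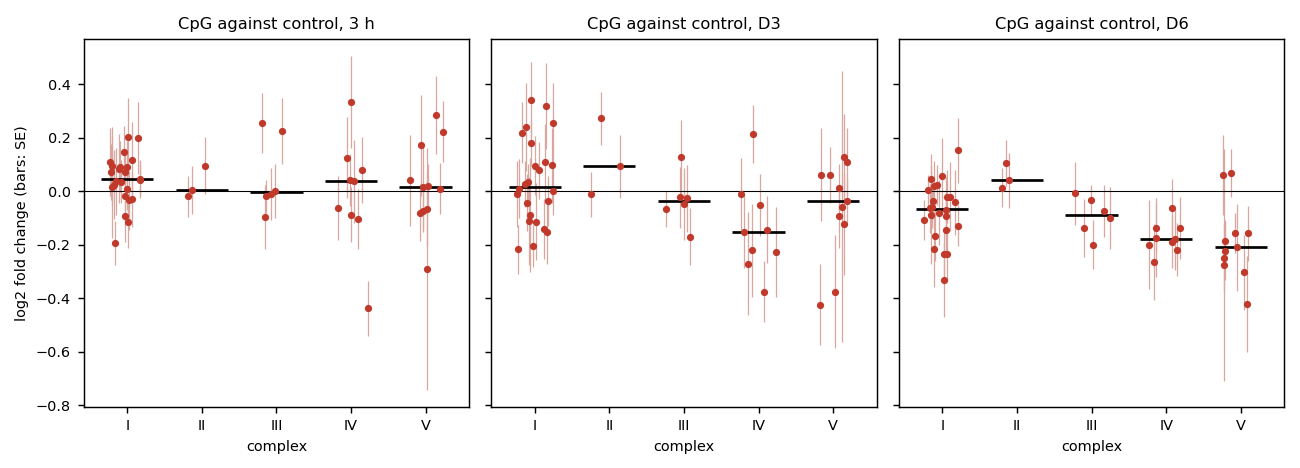
Log2 fold change of each member between CpG and control chicks at 3 h, D3 and D6, by complex, with SE as bars and the median of a complex as a black line. No point passed the test, the points of complex IV lie below 0 at D6, and the lowest point of complex IV at 3 h is COX8A.

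COX8A had the smallest p at 3 h. Its log2 values were 7.90, 8.23 and 8.42 (lowest, median and highest) in the 10 CpG chicks and 8.36, 8.60 and 8.84 in the 10 controls, and 9 of the 10 CpG chicks lay below every control. The difference was -0.44 ± 0.10 with an adjusted p of 0.17 over all probe sets, 0.0342 with array weights, and 0.106 to 0.3 in the other settings tried. It passed in none of the 20 fits that left out 1 chick. At D3 it was -0.37 ± 0.12 (adjusted p = 0.113) and at D6 -0.22 ± 0.10 (adjusted p = 0.288), with overlapping groups. The next smallest p-values at 3 h belonged to NDUFS8 (-0.19 ± 0.08, adjusted p = 0.932), UQCRFS1 (0.25 ± 0.11, adjusted p = 0.952) and ATP5S (0.29 ± 0.15, adjusted p = 0.969).

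At D3, SDHD lay at 8.77, 9.08 and 9.46 in CpG chicks while the controls had 8.34, 8.93 and 9.18 (0.27 ± 0.10, adjusted p = 0.178), and ATP5B lay at 10.15, 10.68 and 11.21 and 10.65, 11.07 and 11.96 (-0.42 ± 0.15, adjusted p = 0.171). Both pairs of groups overlapped. NDUFA9, which sits where the peripheral arm of complex I meets the membrane arm, lay at 8.98, 9.29 and 9.53 and 8.18, 9.00 and 9.24 at D3 (0.34 ± 0.14, adjusted p = 0.239). At D6 it lay at 7.89, 9.54 and 9.84 and 9.00, 9.22 and 9.49, and the difference was 0.15 ± 0.12 (adjusted p = 0.651). The lowest value at D6 is CpG chick 31, and without that chick the difference was 0.32 ± 0.08 (adjusted p = 0.0276). With CpG chick 31 included, the 10 members with an unadjusted p under 0.05 at D6 were all lower in CpG chicks. Among these 10, that chick stood out as the lowest of its group for NDUFS8 (7.41, next 7.89) and ATP5H (8.58, next 9.05). The differences of the 10 members without it are not given here. The smallest p belonged to NDUFS8 (-0.23 ± 0.08, adjusted p = 0.113) and NDUFA8 (-0.33 ± 0.14, adjusted p = 0.232), and the others were UQCRQ, COX8A and NDUFC2 and, in complex V, ATP5C1, ATP5G1, ATP5H, ATP5I and ATP5S, with adjusted p-values of 0.237 to 0.348.

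Complexes I, III, IV and V also hold subunits encoded by mitochondrial DNA, of which 3 had a probe set with a single symbol: ND4L and ND6 of complex I and COX3 of complex IV. All 3 rose from 3 h to D6 in both treatments, where 26.2% of all probe sets rose in controls and 24.1% in CpG chicks. In controls ND6 lay at 8.36, 8.70 and 9.12 at 3 h, 9.22, 10.04 and 10.82 at D3 and 10.05, 10.85 and 11.36 at D6. ND4L lay at 11.81, 12.36 and 12.65, 12.66, 13.14 and 13.60 and 13.25, 13.59 and 13.72, and COX3 at 11.88, 12.45 and 12.69, 12.82, 13.23 and 13.44 and 13.21, 13.45 and 13.52. For all 3 genes every control at D3 and D6 lay above every control at 3 h, where 2.89% (D3) and 8.2% (D6) of all probe sets had no overlap. The changes to D6 were 2.06 ± 0.18 (adjusted p = 1.33e-13) for ND6, 1.24 ± 0.15 (adjusted p = 4.73e-10) for ND4L and 1.00 ± 0.10 (adjusted p = 2.11e-12) for COX3. In CpG chicks the changes to D6 were 1.23 ± 0.19, 1.05 ± 0.15 and 0.91 ± 0.10 (adjusted p of at most 5.79e-07).

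ND6 also differed between treatments at D6. It lay at 9.36, 9.94 and 10.66 in CpG chicks while the controls had 10.05, 10.85 and 11.36, 6 of 10 CpG chicks lay below every control, and the difference was -0.83 ± 0.18 (adjusted p = 0.00561). It passed in all 22 fits that left out 1 chick (-0.90 to -0.76). It no longer passed with the erythroid score as a covariate (-0.67 ± 0.18, adjusted p = 0.0523) or with all 6 scores (-0.80 ± 0.21, adjusted p = 0.145), and passed where the embryonic globins were added to the erythroid score (-0.68 ± 0.17, adjusted p = 0.029). ND4L (-0.49 ± 0.15, adjusted p = 0.0611) and COX3 (-0.24 ± 0.10, adjusted p = 0.222) did not pass, and the change of the ND6 effect from 3 h to D6, -0.83 ± 0.26 (adjusted p = 0.149), did not either. ND6 lies on the other strand of mitochondrial DNA from the rest of the protein genes, and whether its probes read 1 strand only is not given in the sources used here.

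**Figure D5:**
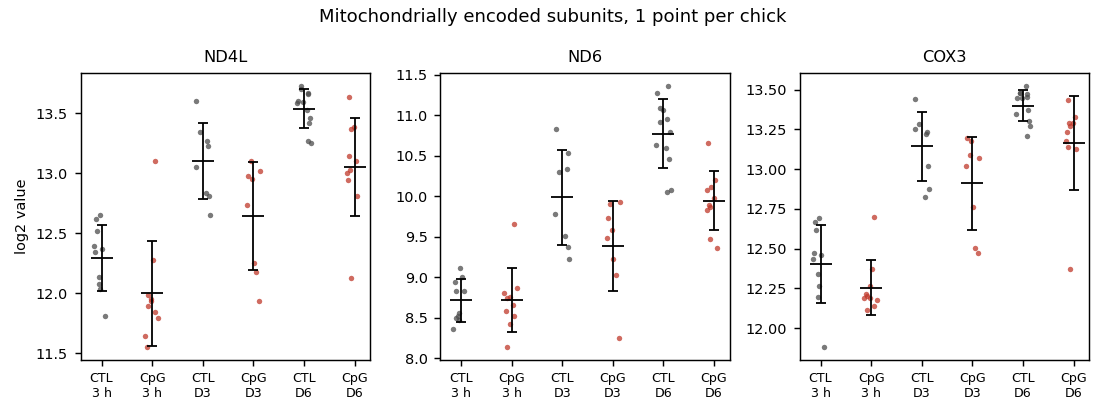
Log2 values of the mitochondrially encoded genes ND4L, ND6 and COX3 in each chick, by treatment and time, with group mean (line) and SD (bars). Every control at D3 and D6 lies above every control at 3 h, and the CpG chicks at D6 have a mean of 9.94 for ND6 where controls have 10.77.

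Other mitochondrial genes were followed by lists, and their counts from 3 h to D6 in controls stand against 48.0% of all probe sets called (26.2% higher and 21.7% lower). Of 58 genes of the mitochondrial ribosome 22 rose and 3 fell (43.1%), with a median of 0.16. Its leading calls were MRPL24 (0.98 ± 0.12), MRPS12 (0.60 ± 0.07) and MRPL16 (0.47 ± 0.08). Of 32 assembly factors of the complexes 5 rose and 4 fell (28.1%, median 0.04), among them SCO2, which brings copper to complex IV (0.45 ± 0.09), SDHAF3, which helps to build complex II (0.65 ± 0.14), and TMEM186, which takes part in building complex I (-0.91 ± 0.19). Of 12 genes listed for the mobile electron carriers and their synthesis 5 rose and 3 fell (66.7%, median 0.14), with rises of PDSS2 (0.46 ± 0.09) and COQ5 (0.34 ± 0.10) and a fall of COQ8A (-0.61 ± 0.12), all 3 in the ubiquinone pathway. That list also holds NDUFAB1, a complex I gene that the symbol rule left out because no digit follows NDUFA. Of the genes named here, SDHAF3 (5.303), TMEM186 (5.805) and PDSS2 (6.118) had mean log2 values under the 40th percentile of all probe sets (6.26).

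Of 14 genes of the tricarboxylic acid cycle and of pyruvate dehydrogenase, which feeds it (PDHA2, PDHB and DLAT), 6 rose and 4 fell (71.4%, median 0.12). IDH2, the mitochondrial isocitrate dehydrogenase that uses NADP, and MDH2, the malate dehydrogenase, changed by 0.99 ± 0.13 and 0.58 ± 0.12, and DLD, a subunit shared by the pyruvate and oxoglutarate dehydrogenases, by -0.47 ± 0.10. Among 19 genes of protein import and carriers there were 1 rise and 7 falls (42.1%, median -0.06), and 11 did not pass. The import receptor TOMM20 (-0.74 ± 0.10) and TOMM34 (-0.60 ± 0.10) fell and the small subunit TOMM6 (0.61 ± 0.10) rose. Of 13 regulators of mitochondrial biogenesis 3 rose and 5 fell (61.5%, median -0.13), with SIRT1, a deacetylase, at -0.41 ± 0.07, C10orf2, the helicase of mitochondrial DNA, at 0.44 ± 0.08 and GABPB1, a subunit of the factor NRF-2, at -0.30 ± 0.07. The adjusted p of each gene named from these lists was at most 0.00388.

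In CpG chicks from 3 h to D6, where 44.6% of all probe sets were called (24.1% higher and 20.5% lower), the rises and falls were 15 and 4 of 58 in the mitochondrial ribosome (32.8%), 6 and 8 of 32 assembly factors (43.8%) and 2 and 3 of 12 electron carrier genes (41.7%). They were 4 and 3 of the 14 genes of the cycle and pyruvate dehydrogenase (50.0%), 3 and 7 of 19 import and carrier genes (52.6%) and 1 and 2 of 13 regulators (23.1%). Between CpG and control chicks at D6, only 2 genes of these 6 lists passed, where 2.11% of all probe sets were called. They were MRPL37 (-0.66 ± 0.14, adjusted p = 0.00415) and MRPS25 (0.31 ± 0.07, adjusted p = 0.0149), both of the mitochondrial ribosome. No gene of the 6 lists passed at 3 h or D3, where 0.0% and 0.312% of all probe sets were called.

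Of the 53 members, 5 lie on the sex chromosomes (4 on Z and 1 on W), and only female birds carry a W. The mean of the W-linked genes HINTW and UBAP2L2 split the chicks into 27 with high and 31 with low signal, between 3 and 6 chicks with high signal in each group. ATP5F1AW, the W copy of the alpha subunit of the ATP synthase, lay at 7.60, 9.06 and 9.84 (lowest, median and highest) where the W signal was high and at 6.02, 6.90 and 7.66 where it was low. ATP5F1AZ, its Z copy, lay at 7.82, 8.51 and 9.04 and at 8.85, 9.08 and 9.53. Both copies encode the same subunit, and the array's probes may not keep them apart. The Z-linked members COX7C and NDUFS4 were lower where the W signal was high (medians 6.98 against 7.53 and 7.55 against 8.11), and the medians of ATP5I were 6.59 and 6.79.

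The calls of the alpha subunit moved with the W signal as a covariate. The change of ATP5F1AW from 3 h to D6 was 1.09 ± 0.43 (adjusted p = 0.0328) in controls and 1.11 ± 0.45 (adjusted p = 0.0411) in CpG chicks, and it no longer passed in 10 of 22 and in 12 of 20 fits that left out 1 chick. With the W signal as a covariate it was smaller and its adjusted p lower, 0.67 ± 0.17 in controls (adjusted p = 0.000832) and 0.64 ± 0.18 in CpG chicks (adjusted p = 0.0028). ATP5F1AZ changed by 0.23 ± 0.16 (adjusted p = 0.251) in controls without that covariate and by 0.37 ± 0.09 (adjusted p = 0.000381) with it, and in CpG chicks it did not pass with it (0.14 ± 0.09, adjusted p = 0.211). In CpG chicks 2 Z-linked members passed only with the covariate, NDUFS4 (0.62 ± 0.12, adjusted p = 2e-05, against 0.44 ± 0.19, adjusted p = 0.0526, without it) and COX7C (0.32 ± 0.11, adjusted p = 0.0129, against 0.17 ± 0.17, adjusted p = 0.425).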

How the data were processed

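Blood RNA of 58 chicks was hybridised to 1 array each, with biotin-labelled targets made by the WT PLUS protocol per the labels. The deposited values are log2 expression values from RMA per the submitters' processing notes, a method that subtracts background, equalises the arrays' distributions and combines each probe set's probes. The RMA version is not given in the sources used. Values ran from 1.12 to 14.75 and were used as deposited. Depth does not apply to arrays, and their number limits the precision.

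Groups came from the treatment and time in the labels. One model over the 6 groups was fitted to all 20804 probe sets with limma 3.58.1 in R 4.3.3 (52 residual and 4.17 prior degrees of freedom), and p-values were adjusted by Benjamini-Hochberg over all probe sets with a threshold of 0.05. The labels do not say whether chicks were hatched or handled apart, so that p-values measure the spread between these chicks. The fit was tested on simulated data. Tables and plots used Python 3.11.15, pandas 2.3.3, numpy 2.4.6, scipy 1.17.1 and matplotlib 3.10.9.

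The platform table gave 1 gene symbol for 12300 probe sets, several for 256 and none for 8248, and 651 genes had several probe sets. Among all probe sets, 1644 share every value with another one. Gene names and chromosomes came from the GRCg7b gene table, and 3 synonym matches judged doubtful (ALAS1 for ALAS2, SH2D6 for BLNK and YY2 for YY1) were left out. Other synonym matches were kept, among them PDHA2 for PDHA1, TIMM17B for TIMM17A and S100A12 for S100A9. The W signal is the mean of HINTW and UBAP2L2.

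Values are given for up to 4 called members per complex and comparison by size of change, for the smallest p-values where none was called, for isoform sets, for members that are no standard subunit, for sex-linked copies, for members whose probe sets disagree and for the ends of each complex's range. Members outside this rule were named, some with values, after their values were seen, to complete each complex. From the other lists, up to 3 called genes with the smallest p are named. The members and lists were chosen with earlier results of these data known. The alternatives were other filters, priors, weights, normalizations and covariates, and fits without 1 chick. Leaving out the arrays that stood apart and adding embryonic globins to the erythroid list were chosen after seeing the data.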

Additional observations from a re-analysis of the deposited data

Results flagged for a closer look

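The highest or lowest chick of a group was set against its nearest neighbour by Dixon's ratio at the 95% level, for all 53 members and the 5 complex means, over the 5 groups of up to 10 chicks. Of 290 such groups of values 47 passed. Chance passes about 1 in 20 single groups, but these groups share the same arrays and the complex means average the same members. The count of 47 can therefore not be set against that rate. The 12 controls at D6 were too many for this comparison.

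CpG chick 31 at D6, an array that stood apart as a whole, was the lowest of its group in 30 of the 47. Among the members of complex IV it had COX4I1 at 9.08 (next lowest 9.85), COX6A1 at 8.86 (next lowest 9.45), COX6C at 6.83 (next lowest 7.77), COX7A2 at 7.05 (next lowest 9.20), COX7A2L at 6.20 (next lowest 6.95), COX7B at 10.45 (next lowest 11.47) and NDUFA4 at 9.06 (next lowest 10.30). In complex V it had ATP5B at 9.57 (next lowest 10.66), ATP5E at 7.22 (next lowest 8.56), ATP5H at 8.58 (next lowest 9.05) and ATP5O at 7.90 (next lowest 9.07), and in complex III UQCRC1 at 9.26 (next lowest 9.56), UQCRC2 at 7.58 (next lowest 8.35), UQCRFS1 at 7.05 (next lowest 7.82) and UQCRHL at 7.90 (next lowest 8.68). In complex II it had SDHA at 9.18 (next lowest 9.62), and in complex I NDUFA10 at 7.77 (next lowest 8.94), NDUFA7 at 7.57 (next lowest 8.45), NDUFA9 at 7.89 (next lowest 9.43), NDUFB10 at 10.21, NDUFB2 at 8.42 (next lowest 8.85), NDUFB3 at 8.51 (next lowest 8.88), NDUFB9 at 8.40 (next lowest 8.99), NDUFS8 at 7.41 (next lowest 7.89) and NDUFV1 at 7.51 (next lowest 8.13). Its complex means were 8.02 for complex I (next 8.57), 8.60 for complex II (next 8.98), 7.82 for complex III (next 8.34), 8.11 for complex IV (next 9.12) and 7.64 for complex V (next 8.26). The erythroid score of this chick, -0.97, was also the lowest of its group, and the part of that in these values was not tested.

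Control chick 86 at D3, another array that stood apart, had the lowest NDUFA10 (7.74, next 8.60) and NDUFA9 (8.18, next 8.87) of its group and the highest UQCR11 (8.52, next 8.11) and ATP5E (9.68, next 8.44). Control chick 74 at 3 h, the remaining such array, had the lowest ATP5C1 (7.29, next 8.09). Control chick 75 at 3 h had the lowest NDUFS8 (7.31, next 7.72) and the lowest complex IV mean (8.29, next 8.54), and control chick 90 at D3 had the lowest NDUFS8 (7.63, next 7.91). Among CpG chicks at 3 h, chick 9 had the highest NDUFA9 (9.63, next 9.37) and the lowest NDUFS8 (7.36, next 7.57), and chick 10 had the lowest ATP5H (8.47, next 8.77). Chick 2 had the highest COX7A2L (7.30, next 6.89) and chick 1 the highest NDUFB4 (9.07, next 8.91). At D3, CpG chick 16 had the highest ATP5G1 (7.36, next 7.24), CpG chick 14 the highest NDUFB6 (9.48, next 8.77), CpG chick 20 the lowest NDUFB9 (8.69, next 9.27) and control chick 87 the highest NDUFB6 (9.25, next 8.70).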

How the results depend on the processing

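Of the 118 called changes of the 53 members, 118 still passed with 1 probe set per gene and with a filter on the lowest 40% of probe sets, 117 with a trended robust prior, 116 with array weights, 114 with the W signal as a covariate, 108 with median centring, 107 with repeated quantile normalization and 100 in fits of only the arrays compared. Of the same 118, 64 passed with the erythroid score as a covariate and 24 with all 6 cell type scores. Chosen after seeing the data, leaving out the 3 arrays that stood apart kept 114, and adding the embryonic globins HBE and HBZ to the erythroid list gave 87 with that score and 36 with all 6. The sign turned in 7 cases, all uncalled there and under 0.1 in size: from 3 h to D6 in controls for COX6A1 (-0.043) and COX7A2L (-0.058) with the erythroid score and for ATP5O (-0.058), COX6A1 (-0.067) and COX7B (-0.017) with the 6 scores, and with the 6 scores in CpG chicks for COX7A2L from 3 h to D6 (-0.020) and NDUFS8 from D3 to D6 (-0.019).

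In brackets behind each count of members called is the share of all probe sets called in the same fit. In controls from 3 h to D3 the count was 15 with the erythroid score (18.8%), 7 with the 6 scores (10.4%) and 11 with the 6 scores and embryonic globins (12.3%). From D3 to D6 in controls it was 11 with repeated quantile normalization (15.5%), 0 with the erythroid score (12.3%) or the 6 scores (3.74%), 1 and 0 with the embryonic globins added to these (12.6% and 4.08%), and 8 without the arrays that stood apart (20.0%). From 3 h to D6 in controls it was 16 with the erythroid score (33.5%), 8 with the 6 scores (12.8%) and 12 with embryonic globins added to these (15.4%). In CpG chicks from 3 h to D3 it was 11 with the erythroid score (16.3%), 2 with the 6 scores (5.6%), and 11 and 2 with embryonic globins (16.7% and 6.23%). From D3 to D6 in CpG chicks it was 3 in the fit of only these arrays (20.6%), 18 with array weights (33.4%), 0 with the 6 scores without and with embryonic globins (0.399% and 0.534%), and 17 without the arrays that stood apart (29.6%). From 3 h to D6 in CpG chicks it was 8 with the 6 scores (16.7%) and 13 with embryonic globins added (20.0%). Between CpG and control chicks, 1 member (COX8A) was called at 3 h with array weights (0.0385%), and 1 (NDUFA9) at D6 with array weights (3.28%) and also without the arrays that stood apart (2.49%). The cause of these differences was not tested.

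Leaving out 1 chick at a time gave 19 to 24 calls from 3 h to D3, 2 to 9 from D3 to D6 and 33 to 36 from 3 h to D6 in controls, and 13 to 17, 5 to 15 and 26 to 35 in CpG chicks. Between treatments it gave 0 to 0 at 3 h and D3 and 0 to 1 at D6, and 0 to 0 for each change of the CpG effect. In every such fit, 32 of 35 calls from 3 h to D6 in controls and 25 of 30 in CpG chicks passed, against 1 of 5 and 4 of 8 from D3 to D6. No paired analysis was possible because the groups share no chick numbers. The number of arrays limits the precision, and the deposited log2 values do not show how far a signal lies above background.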
